A study of Danio rerio with 3 samples.

Results

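Genes for endothelial surface and secreted proteins (clec14a, the myct1 copies and EGFL7) and genes of the adrenomedullin receptor and its ligand (ramp2, the calcrl copies and the adm copies) were examined in sorted brain cells of adult zebrafish. They were taken by gene symbol, ignoring case and a final a or b, which gave 9 gene IDs of the 32105 in the count table. The 9 are clec14a (ENSDARG00000103533), MYCT1 (ENSDARG00000056125), myct1b (ENSDARG00000088546), EGFL7 (ENSDARG00000100657), ramp2 (ENSDARG00000037895), calcrla (ENSDARG00000011473), its second copy named CALCRL (ENSDARG00000011571), and 2 IDs that both carry the symbol ADM (ENSDARG00000015263 and ENSDARG00000069027). The symbols are those of the ID-to-name table, which does not say which ADM row is adma and which admb.

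The study sequenced bulk RNA of muLECs, mural lymphatic endothelial cells of the brain, in 1 group of 3 libraries. The fish were adult and labelled wildtype, and cells positive for a lyve1 DsRed reporter were sorted after Liberase digestion of the brain. Each library pooled 6 brains, and the RNA was amplified before sequencing. No control or second cell population belongs to the group, so no level could be compared between conditions, and spread between libraries is spread between pools of brains, sorts and amplifications together.

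The libraries held 34307745 to 36044297 reads in genes. Of the lymphatic markers, 9 genes passed the filter of at least 10 reads in at least 2 libraries, and 7 of them stood above the median gene by the test explained below, as did 23.4% of all tested genes. Among them was the sort gene lyve1b at 605 CPM (read counts scaled to library depth) ± 73.2 (SD, n = 3). PROX1, the lymphatic identity factor, was uneven, with 614, 1213 and 1 reads in replicates 1, 2 and 3. Of 8 rows listed as blood and brain capillary endothelial markers, 5 had no more than 3 reads in any library. Among them were cdh5 (0, 3 and 0 reads) and kdrl (3, 1 and 1 reads), both also listed as markers of endothelium in general. Their low reads therefore do not set lymphatic apart from blood endothelium. The Notch ligand gene dll4, the only 1 of the 8 to be tested, stood at 71.0 CPM ± 28.9. It was called above the median gene, at a log2 ratio of 2.54. ABCB4 had 630, 4 and 1 reads and flt1 2, 296 and 2, and neither was tested. Marker genes of other cells were present: summed levels were 1034.9 to 3328 CPM for macrophages and microglia, highest in replicate 3. Of 16 rows there, 4 were tested and 3 called above, among them apoeb (1360.4 CPM ± 882.2) and cd74a (296 CPM ± 231). Of these sums, apoeb alone held 990, 724 and 2367 CPM in replicates 1, 2 and 3. By contrast, ptprc had 8, 1 and 237 reads, csf1ra 0, 3 and 102 and CORO1A 0, 0 and 466. P2RY12 and LCP1 had 0 reads in every library. Summed levels were 228 to 970.2 CPM for pericytes and smooth muscle and 1249 to 3485 CPM for neurons and glia, both highest in replicate 2. RGS5 alone held 148, 651 and 18.6 CPM of the former in replicates 1, 2 and 3. The myelin gene mbpa alone held 575, 2109 and 683 CPM of the latter. All 3 tested pericyte and smooth muscle genes were called above, among them RGS5 (273 CPM ± 334) and TAGLN (210.4 CPM ± 73.7), with PDGFRB at 1, 0 and 0 reads, and 5 of 11 tested neuron and glia genes were, among them mbpa (1122 CPM ± 856) and ATP1B4 (601 CPM ± 237), with GFAP at 0, 1 and 0 reads. Fibroblast markers summed to 69.6 to 164 CPM, highest in replicate 3. There 1 of 7 tested genes was called above (14.3%, against 23.4% of all tested genes), PDGFRA at 38.8 CPM ± 12.6. DCN had 204, 1005 and 952 reads and did not pass, and LUM had 1, 0 and 0. The part of all these markers in the results below was not tested. In bulk RNA, fewer cells of a type and less RNA per cell cannot be told apart.

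Clec14a is a C-type lectin of the endothelial surface that binds the matrix protein multimerin 2, and Egfl7 is a secreted endothelial factor that lies in the matrix and acts in vessel formation. Myct1 is a small membrane protein of endothelium, studied in mouse as a target of the ETS factor Etv2. Adrenomedullin is a peptide hormone whose receptor is assembled from the G protein-coupled receptor Calcrl and a receptor activity modifying protein such as Ramp2, which carries Calcrl to the cell surface. In mouse, loss of the peptide, of Calcrl or of Ramp2 gives oedema and defects of lymphatic vessels.

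clec14a, MYCT1, EGFL7 and ramp2 had 5950 or more reads in every library and stood well above the median gene, while the calcrl copies were high in 1 library each and at 3 and 11 reads in another, and myct1b lay near the median gene in replicates 1 and 3 and had 7 reads in replicate 2. Each gene was tested against the median tested gene of the same libraries, which had 475, 328 and 523 reads. It was an edgeR quasi-likelihood test at a Benjamini-Hochberg adjusted p under 0.05. Of the 9 IDs, 7 passed the filter and were tested. Of the 7, 4 were called above that gene, 0 were called below (0 by limma-trend, and 0 at an unadjusted p under 0.05) and 3 did not pass. DESeq2 gave no adjusted p for these 3 (myct1b, calcrla and CALCRL), so it could not call them either way. Over all 7111 tested genes, 23.4% were called above and 1.24% below. A call follows closely from the level: of the 313 tested genes with a mean of 200 to 1000 CPM, all 313 were called above. Reads were not divided by transcript length. A call, or a share of genes with fewer reads, therefore places a gene by its reads and not by its transcript copies.

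**Figure D1:**
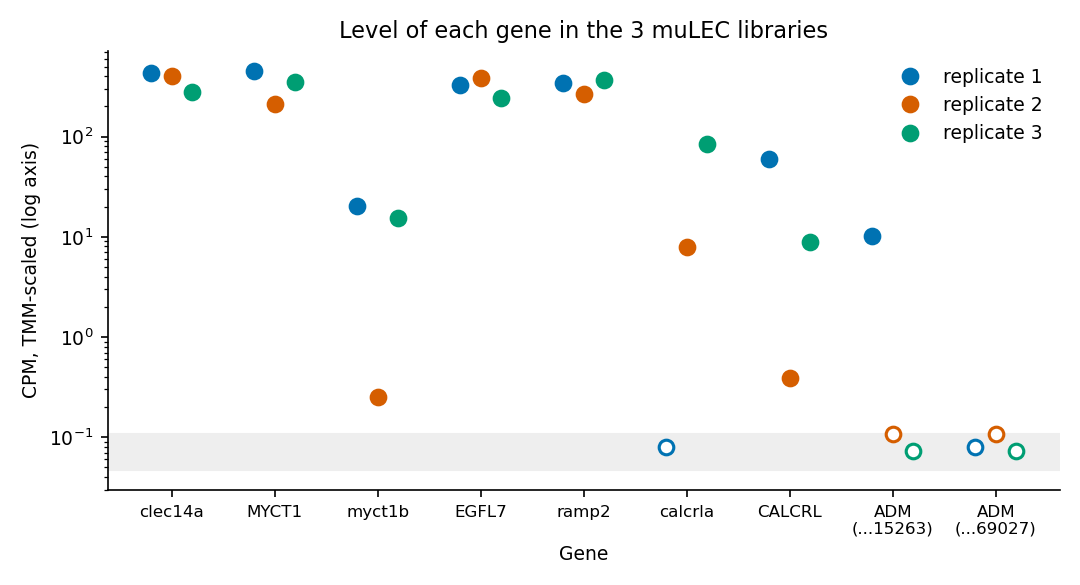
CPM scaled with TMM factors (log axis) of each of the 9 genes in replicates 1, 2 and 3. Open circles mark 3 reads or fewer, drawn no lower than the level of 3 reads, and the grey band spans levels up to 3 reads in the library with the highest such level, replicate 2 (0.107 CPM). clec14a, MYCT1, EGFL7 and ramp2 lie between 213 and 454 CPM in all 3 libraries, whereas myct1b, calcrla and CALCRL each have 1 library under 0.4 CPM and the others at 7.82 CPM or more.

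For clec14a, 16448, 11335 and 11461 reads were counted in replicates 1, 2 and 3, or 435 CPM, 405 CPM and 279 CPM. Replicate 2 had the fewest reads, but after TMM scaling replicate 3 was the lowest. The highest and lowest libraries then differed by 1.56 times. The mean was 373 CPM ± 83.1 (SD, n = 3), and the log2 ratio to the median gene was 4.92 with an SE of 0.31 (edgeR adjusted p = 3.26e-11). In each library, 96.8% to 97.6% of the tested genes had fewer reads than clec14a. The authors' deposited YuGene score, a within-library rank-like score that runs from 0 for undetected genes towards 1 for the top gene, was 0.940, 0.911 and 0.938.

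EGFL7 had 12401, 10787 and 9893 reads, or 328 CPM, 385 CPM and 241 CPM. Its reads varied little, and after scaling replicate 2 was the highest and replicate 3 the lowest, 1.60 times apart. The mean was 318 CPM ± 72.9, with its log2 ratio to the median gene at 4.70 with an SE of 0.31 (edgeR adjusted p = 8.61e-11, n = 3). The deposited YuGene scores of EGFL7 were 0.922, 0.907 and 0.927.

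MYCT1 had 17150, 5950 and 14546 reads, or 454 CPM, 213 CPM and 354 CPM. Replicate 2 held less than the other libraries, 2.14 times under replicate 1, which made MYCT1 the most variable of the 4 called genes, at a coefficient of variation (CV, the SD over the mean) of 0.357. Its mean was 340.1 CPM ± 121 and its log2 ratio to the median gene 4.77 with an SE of 0.32 (edgeR adjusted p = 7.84e-11, n = 3).

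The other copy, myct1b, had 774, 7 and 629 reads, or 20.5 CPM, 0.25 CPM and 15.3 CPM. Its reads in replicate 2 were close to the floor of 3 reads. The mean of 12.01 CPM ± 10.5 lay near the median gene, at a log2 ratio of -0.07 with an SE of 1.37 (edgeR adjusted p = 0.988, n = 3). Without replicate 1 its mean was 7.77 CPM. MYCT1 thus had 95.7%, 99.9% and 95.9% of the reads of the pair in replicates 1, 2 and 3. The log2 ratio of MYCT1 reads to myct1b reads was 4.47, 9.73 and 4.53, a mean of 6.24 ± 3.02 (SD, n = 3, exact two-sided sign-flip permutation p = 0.25, and no lower p can be had from 3 libraries). MYCT1 held more reads in 3 of 3 libraries, and the size of the difference in replicates 1 and 3 was nearly the same. These shares are of reads, with no length correction.

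ramp2, the receptor activity modifying protein gene, was even across the libraries. It had 13029, 7423 and 15226 reads, or 345 CPM, 265 CPM and 370.2 CPM. Replicate 2 was the lowest and the libraries spanned 1.40 times, a CV of 0.168. The mean was 327 CPM ± 54.8, and the log2 ratio to the median gene was 4.72 with an SE of 0.30 (edgeR adjusted p = 5.36e-11, n = 3). Its deposited YuGene scores were 0.926, 0.870 and 0.949. The size of the ratios moved with the genes tested and the libraries used: with at least 10 reads in all 3 libraries they were 3.70 for clec14a, 3.46 for EGFL7, 3.61 for MYCT1 and 3.54 for ramp2, all still called. Without replicate 1 they were 3.901, 3.76, 3.73 and 3.88, without replicate 2 4.38, 4.05, 4.56 and 4.39, and without replicate 3 3.95, 3.70, 3.66 and 3.499, in the same order of genes and all called.

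The calcrl copies, which encode the receptor that Ramp2 partners, were unevenly read, and the copy with more reads changed between libraries. calcrla had 3, 219 and 3449 reads, or 0.0794 CPM, 7.82 CPM and 83.9 CPM. It lay at the floor in replicate 1 and well above the median gene in replicate 3 alone. Over the 3 libraries its log2 ratio to the median gene was 1.28 with an SE of 1.095 (edgeR adjusted p = 0.480, n = 3), which did not pass. Without replicate 3 its mean fell from 30.6 CPM to 3.95 CPM, and it did not reach the filter without replicate 2 or replicate 3.

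CALCRL (ENSDARG00000011571) showed another order of libraries, with 2252, 11 and 368 reads, or 59.6 CPM, 0.393 CPM and 8.95 CPM. Replicate 1 held most of its reads, the library in which calcrla was at the floor. Its log2 ratio to the median gene was 0.87 with an SE of 1.11 (edgeR adjusted p = 0.748, n = 3). Without replicate 1 the mean fell from 23.0 CPM to 4.67 CPM and the log2 ratio to -2.04, which also did not pass.

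calcrla made up 0.133% of the reads of the pair in replicate 1 (95% Clopper-Pearson interval 0.0274% to 0.388%). In replicate 2 its share was 95.2% (91.6% to 97.6%) and in replicate 3 90.4% (89.4% to 91.3%). These intervals treat reads as independent, which amplified reads are not, so they understate counting error and leave out spread between pools. They do not overlap between replicate 1 and the others, which is no test of the difference. The log2 ratio of calcrla reads to CALCRL reads was -9.55, 4.32 and 3.23, a mean of -0.67 ± 7.71 (SD, n = 3, exact two-sided sign-flip permutation p = 1). A transcript length that differs between the copies shifts all 3 ratios by the same amount, so the spread between libraries does not depend on it. Such changes of order were common in these libraries among pairs of IDs that shared a symbol, ignoring case and a final a or b. Some of these pairs may be related genes and not copies of a gene. Of 453 such pairs with both IDs tested, 186 changed order between libraries (41.1%), and 67 were at least 4 times apart in both directions (14.8%), as the calcrl copies were. The span of the calcrl log2 ratio, 13.9, was reached or passed by 9 of the 453 pairs, the calcrl pair included, against a median span of 4.64. Among the 168 pairs with a mean summed level of 25 to 100 CPM, like the calcrl pair, 83 changed order (49.4%). There the median span was 5.29 and 6 pairs, the calcrl pair included, reached that of calcrl.

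Summed over both copies, the calcrl level was 59.7 CPM, 8.22 CPM and 92.8 CPM, a CV of 0.796 against 1.51 for calcrla and 1.39 for CALCRL. The CV of a sum cannot pass the larger CV of its 2 parts, so the lower value does not show copies making up for each other. It also depends on the transcript lengths of the copies, which were not used. Replicate 2 stood lowest for the summed copies, as it did for CALCRL, ramp2, MYCT1 and myct1b, but not for calcrla or clec14a. For EGFL7 it was the highest, at 385 CPM. Replicate 2 was the library with the fewest genes at 10 reads or more (6117, against 7472 and 9739). It was also the library with the highest summed neuron and glia markers (3485 CPM, of which mbpa held 2109 CPM and ATP1B4 871 CPM). The summed lymphatic markers (7084 CPM) and other endothelial surface genes (717 CPM) were highest there as well. The part of these markers in the low values was not tested. The reads of ramp2 per read of the calcrl copies were 5.78, 32.3 and 3.99. These ratios carry no length correction, and the share of each calcrl copy changed between libraries. If the copies differ in transcript length, neither the ratio nor its change between libraries is free of length.

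**Figure D2:**
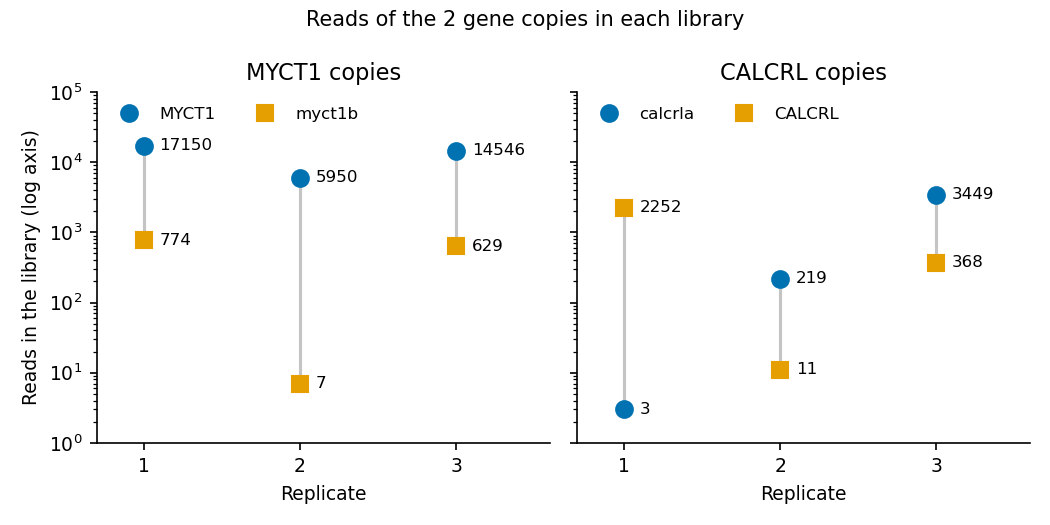
Reads (log axis) of the copies of MYCT1 (left) and CALCRL (right) in replicates 1, 2 and 3, joined within a library by a grey line, with the read number beside each point. MYCT1 lies above myct1b in all 3 libraries (5950 against 7 reads in replicate 2), while CALCRL lies above calcrla in replicate 1 (2252 against 3 reads) and below it in replicates 2 and 3.

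The ligand was hardly read. The ADM row ENSDARG00000015263 had 386, 2 and 0 reads, or 10.2 CPM in replicate 1 and values at or under the floor in the others. Fewer than 2 libraries reached 10 reads, so it was not tested. The ADM row ENSDARG00000069027 had 0 reads in all 3 libraries, which allows up to 3 reads, or 0.0794 CPM, 0.107 CPM and 0.0729 CPM in replicates 1, 2 and 3. In replicate 1 the first row was thus at least 129-fold higher than the second, counted against the floor of 3 reads in that library. In replicates 2 and 3 both rows were at or under the floor, so no ratio is given.

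**Figure D3:**
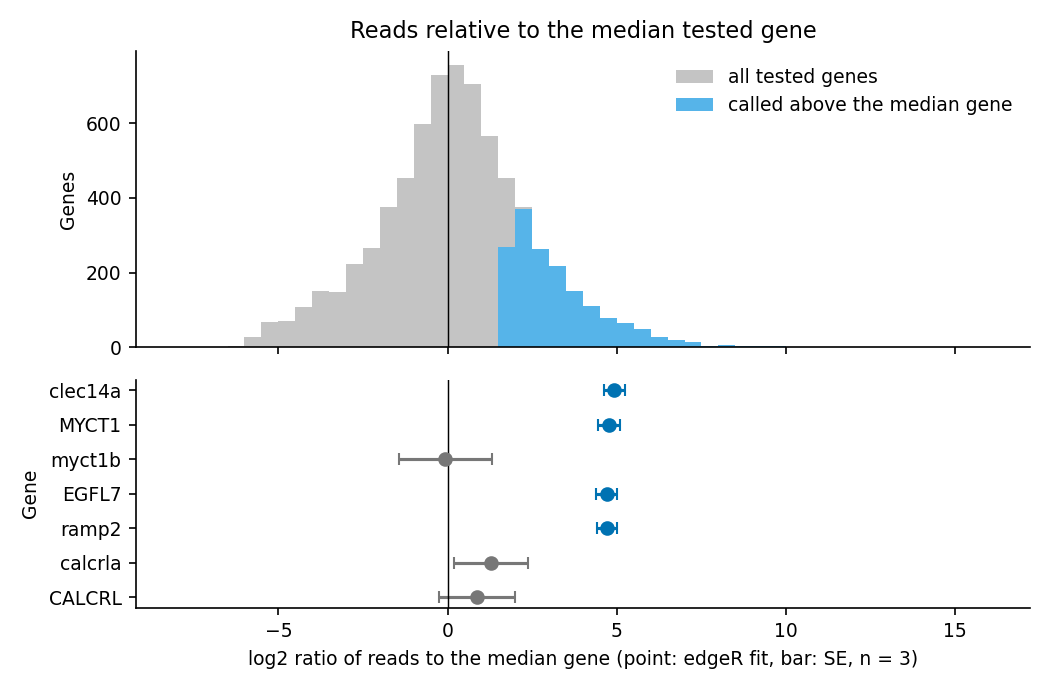
Top, number of tested genes by log2 ratio of reads to the median gene (edgeR fit), grey for all 7111 genes and blue for the 1666 called above. Bottom, the same ratio of the 7 tested genes described here with its SE (n = 3). clec14a, MYCT1, EGFL7 and ramp2 lie between 4.70 and 4.92, in the upper part of the distribution, and the SE bars of myct1b and CALCRL cross 0.

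The 4 called genes were steadier between libraries than the other 3 tested genes. The 4 called genes had CVs of 0.168 to 0.357, and the 313 tested genes of 200 to 1000 CPM had a median CV of 0.313, so only MYCT1 lay above that median. myct1b, calcrla and CALCRL had CVs of 0.875, 1.51 and 1.39, and the 2948 tested genes of 10 to 50 CPM had a median CV of 0.863. A library under 10 reads was found for 2 of the 7 tested genes (calcrla and myct1b), a share of 28.6%, against 42.2% of all tested genes. Both, like CALCRL, have means of 10 to 50 CPM, where the share over all tested genes was 30.1%. The 4 called genes lie at 200 to 1000 CPM, where it was 0%.

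**Figure D4:**
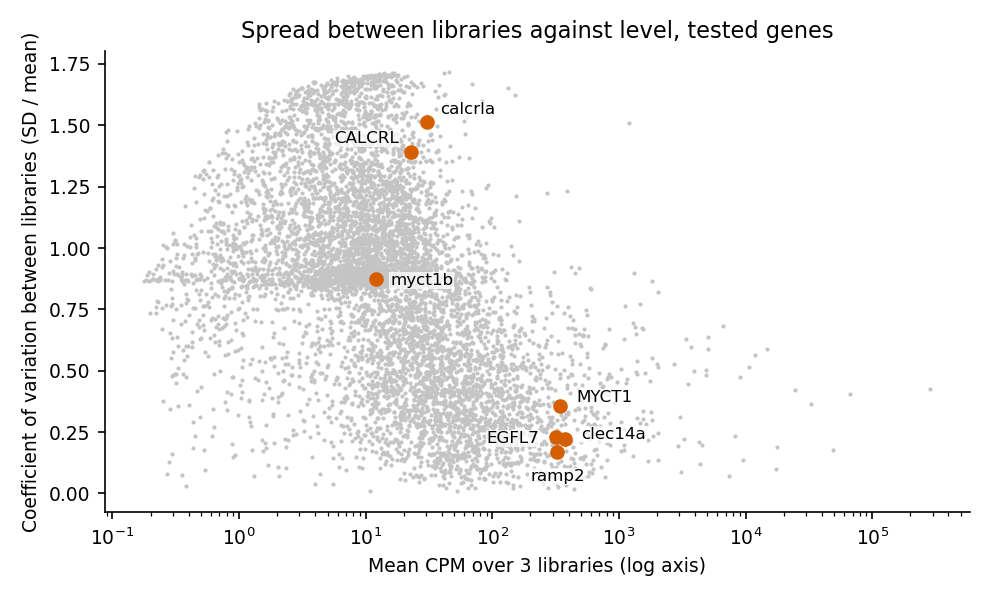
Coefficient of variation between the 3 libraries against mean CPM (log axis), each grey point 1 of the 7111 tested genes and each orange point 1 of the 7 tested genes described here. MYCT1, clec14a, EGFL7 and ramp2 sit at or under 0.357, while calcrla (1.51) and CALCRL (1.39) sit above the median CV of the genes of like level (0.863).

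Genes with levels most like each of the 7 were taken by the root mean square difference of log2(CPM + 1) over the 3 libraries. This measure takes in the level, with no length correction, as well as the pattern over libraries. The nearest to clec14a were fthl31 (0.14) and npl (0.16), and the nearest to EGFL7 were atf4b (0.06) and hmgn1b (0.07). For ramp2 they were RPL26 (0.09) and FAM107B (0.14), and for MYCT1 they were FOSL2 (0.22) and CDC42 (0.27). For myct1b they were tnfrsf18 (0.02) and CDC73 (0.06), for CALCRL DNAJB12 (0.16) and SLC7A3 (0.21), and for calcrla GPN1 (0.40) and BDH2 (0.40). Likeness over 3 libraries is weak: 24 to 305 genes with a symbol lay within 0.5 of each gene, except calcrla, which had 4. RPL26 encodes a ribosomal protein, CDC42 a small GTPase and DNAJB12 a chaperone.

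Other receptors linked to adrenomedullin were read, but its related ligands were not. Of the peptide genes of the same family found in the table beside ADM, adm2a, ADM2 and CALCB had 0 reads in all 3 libraries. Of 5 further receptor and modifying protein genes, 3 passed the filter and 2 were called above (1 without replicate 3), where 23.4% of all tested genes were, with CALCR, the calcitonin receptor gene, at 2, 0 and 0 reads and RAMP1, which with Calcrl forms the receptor for the calcitonin gene-related peptide, at 0, 0 and 1. No row was found under the symbol ramp3, so it was not analysed here.

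ACKR3 encodes a scavenging receptor for Cxcl12 that in mouse also takes up adrenomedullin. Its row ENSDARG00000062478 had 8997, 17175 and 2910 reads, or 238 CPM, 614 CPM and 70.8 CPM. It stood above the median gene at a log2 ratio of 4.68 with an SE of 0.47 (edgeR adjusted p = 6.10e-09, n = 3), and the mean of 307 CPM was 154 CPM without replicate 2. The other row, ENSDARG00000058179, had 198, 740 and 1285 reads and did not pass (log2 ratio 0.77, adjusted p = 0.754, edgeR). GPR182, an endothelial receptor once proposed to bind adrenomedullin, had 2030, 1201 and 8469 reads, at 101 CPM ± 91.1 and a log2 ratio of 3.01 with an SE of 0.47 (edgeR adjusted p = 7.00e-06, n = 3). Replicate 3 held most of it, and without that library the mean was 48.3 CPM and the log2 ratio 0.84, which was not called.

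Of genes for G protein signalling, arrestins, peptide amidation and hypoxia factors, 2 of 13 tested stood above the median gene (15.4%, against 23.4% of all tested genes), at a median log2 ratio of 0.53 against 0.22 over all tested genes. They were the arrestin gene ARRB2 (ENSDARG00000011545), at 82.0 CPM ± 75.4 with 223, 2336 and 6446 reads, and PAM, the enzyme gene that amidates adrenomedullin and other peptides, at 37.9 CPM ± 8.67 with 1273, 897 and 1967 reads. The log2 ratio of ARRB2 fell to 0.59 without replicate 3, with a mean of 44.7 CPM, and it was then not called. That of PAM was 1.61 and fell to 0.27 without replicate 3 and 0.90 without replicate 1, neither called, and DESeq2 did not call it either (1.38, adjusted p = 0.172). The other tested genes with the most CPM, prkacaa (a catalytic subunit of protein kinase A) and the second ARRB2 row ENSDARG00000039215, had 1, 2747 and 1183 reads and 757, 1702 and 361 reads. GNAS, for the G protein subunit that couples Calcrl to cyclic AMP, had 381, 1 and 0 reads and was not tested.

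Among partners of Clec14a, the multimerin gene mmrn2b was read in all 3 libraries, with 1998, 2516 and 1762 reads, at 61.9 CPM ± 24.8. It was the only one of 5 genes to be tested, and it stood above the median gene (log2 ratio 2.35 with an SE of 0.51, edgeR adjusted p = 0.000358, n = 3). Without replicate 3 the ratio was 1.35 and it was not called. Its copy mmrn2a had 0, 0 and 33 reads. Of the lectins of the same family that were found, cd248a had 0, 3 and 959 reads, cd248b 0, 1 and 0, and thbd 2, 0 and 35. None of these was read above the floor in more than 1 library. No row was found under the listed symbols cd93 and mmrn1.

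Of genes at the Egfl7 locus or reported as its partners, 0 of 6 tested stood above the median gene by edgeR, DESeq2 or limma-trend (against 23.4%, 19% and 23% of all tested genes), with LOXL2 at an unadjusted p under 0.05 by edgeR, and 1 of 6 was called with the TMM-based reference. In mammals an Egfl7 intron holds the gene for miR-126, and in the RefSeq annotation of the zebrafish GRCz12tu assembly mir126b lies within egfl7 while mir126a does not. The row mir126a had 845, 568 and 706 reads, at 19.9 CPM ± 2.62 and a log2 ratio of 0.70 with an SE of 0.99 (edgeR adjusted p = 0.786, n = 3). The row MIR126, which the name table does not split into a or b, had 45, 0 and 0 reads. Such rows count library reads that fall on the gene and do not measure the mature microRNA. EGFL7 had 14.7, 19.0 and 14.01 reads per mir126a read. Per MIR126 read it had 276 in replicate 1, and the other libraries had 0 MIR126 reads. LOXL2, a matrix lysyl oxidase gene, had 1546, 1603 and 370 reads, ITGAV, an integrin subunit gene, 4, 537 and 1298, and the NOTCH1 rows 166, 543 and 17 (ENSDARG00000052094) and 105, 5 and 898 (ENSDARG00000103554).

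Of 32 rows found for other endothelial surface genes, 19 passed the filter, of which 3 were called above (15.8%, against 23.4% of all tested genes), at a median log2 ratio of 0.38 against 0.22 over all. Another 9 of the 32, cdh5 and kdrl among them, had no more than 3 reads in any library. The 3 were FLT4, the Vegfc receptor, at 242 CPM ± 48.9, the membrane protein gene tmem88a at 77.5 CPM ± 49.6 and the sialomucin gene cd34 at 69.7 CPM ± 50.9. cd34 had 4503, 492 and 2979 reads, and its log2 ratio of 2.47 fell to 1.16 without replicate 1, with a mean of 45.0 CPM, and to 1.42 without replicate 3, neither called. For tmem88a the mean was 49.0 CPM without replicate 2. The next, acvrl1, a receptor of the Bmp family, had 9, 2048 and 764 reads, and TIE1 had 656, 11 and 2114.

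Of endothelial transcription factor genes, 5 of 12 tested were called above the median gene (41.7%, against 23.4% of all tested genes), at a median log2 ratio of 1.46 against 0.22 over all, and the difference was not tested. LMO2 stood at 175 CPM ± 33.6, klf2a at 171 CPM ± 64.5, SOX7 at 104 CPM ± 30.9, ERG at 93.8 CPM ± 104 and FLI1 at 58.2 CPM ± 25.1 (SD, n = 3). Without replicate 2 the mean of ERG was 33.7 CPM and its log2 ratio 0.98, not called. FLI1 was not called without replicate 1 (log2 ratio 0.97) or without replicate 3 (1.33). With a filter of at least 10 reads in all 3 libraries, FLI1, cd34, mmrn2b, ARRB2 and PAM were not called, at log2 ratios of 1.04, 1.35, 1.07, 1.56 and 0.43.

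**Figure D5:**
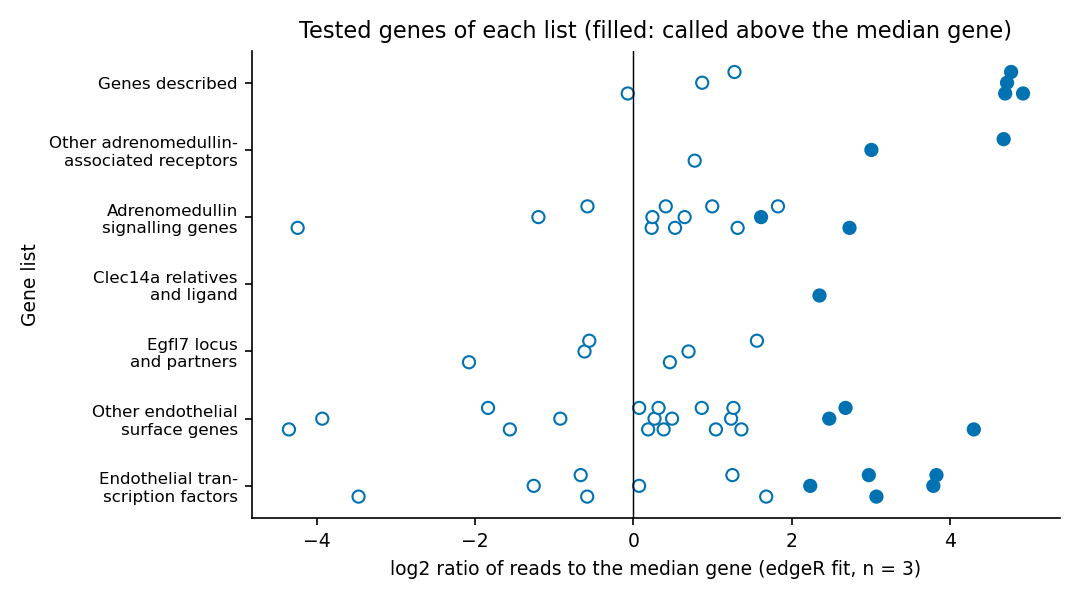
Log2 ratio of reads to the median gene (edgeR fit, n = 3) of each tested gene, by list, filled where called above the median gene; the top row holds the 7 tested genes described here. The 4 filled points of the top row lie at 4.70 to 4.92, ACKR3 (4.68) and FLT4 (4.30) lie closest to them, and most points of the other endothelial surface list are open and lie between -2 and 2.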

How the data were processed

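Whole-number read counts per Ensembl gene and library, with no normalization seen in them, were deposited by the authors for 3 muLEC libraries, with a YuGene score between 0 and 1 (a fraction) per gene, also deposited. The submitters' processing notes name GRCz10, bcl2fastq and R 3.2.2. The sources used here name no aligner, counter or strand setting, so reads shared by near-identical copies or overlapping genes could not be checked. Columns, named pvLEC, were matched to samples by replicate number. Members and gene lists were chosen with earlier results of these data known, and no count or median over them is independent support.

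CPM used TMM factors (1.05, 0.796 and 1.20) computed on tested genes (10 reads in 2 libraries). An edgeR 4.0.16 quasi-likelihood test of the intercept took the log of each library's median tested count as offset. Its steps were written out, because glmQLFTest does not take a single-column design, and were tested on simulated data. Adjusted p-values run over all 7111 genes. Alternatives used DESeq2 1.42.0 and limma 3.58.1. Symbols came from a table that named 26269 of 32105 IDs. Named genes were all members, all rows of the ligand, receptor and Clec14a lists, up to 4 tested genes with the highest mean CPM of each other list, the microRNA rows and the 2 nearest genes per member. TIE1, cdh5, kdrl, GNAS, NOTCH1 row ENSDARG00000052094, FLI1 and the cell type markers named were chosen after their values were seen. Sequences and transcript lengths were not used here, and coordinates served only to place mir126a and mir126b against egfl7 within RefSeq GRCz12tu. Nothing says that the pools shared no sort or amplification run. The edgeR p-values judge a gene's difference from the median gene against spread between these libraries only, estimated partly from other genes.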

Additional observations from a re-analysis of the deposited data

How the results depend on the processing

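The 4 calls of clec14a, MYCT1, EGFL7 and ramp2 held under DESeq2, limma-trend, the other filters, the TMM-based reference and without each library, where the count of genes described here that were called stayed at 4. With no filter on low counts 7 of 8 were called, with myct1b, calcrla and CALCRL added, as more low genes were tested: 8404 of 18455 genes were called above it, and myct1b turned to 6.65. With at least 10 reads in all 3 libraries 1040 of 4108 genes were called, and leaving out a library gave 937 to 1580, against 1666. Calls below the median gene, 88 in all, were 0 with DESeq2 (106 at an unadjusted p under 0.05) and with no filter (0 unadjusted), 1042 with limma-trend, 219 with 10 reads in all 3 libraries and 215 to 480 with a library left out. CALCRL turned to -0.43 with limma-trend, -0.25 with 10 reads in all 3 libraries and, over left-out libraries, to between -2.04 and 0.96. calcrla turned to -0.53 with limma-trend, and myct1b to 0.43 with the TMM-based reference and 0.061 without replicate 2; none of these was called. The log2 ratio of calcrla to CALCRL was -3.16 to 3.77 when a library was left out. The ADM ratio in replicate 1, 7.01 on the log2 scale against the floor, was 9.59 with 0.5 added to each count. It was the same without replicate 2 or 3 and has no value without replicate 1. The 13 called genes of the receptor, signalling, Clec14a partner, endothelial surface and transcription factor lists kept their direction in 104 of 104 values and their call in 88, and no alternative was run for the cell type markers outside these lists. Of the 14 nearest genes, 10 were kept with log2(CPM + 0.1). Ratios per coding length were not run. No paired analysis was possible because the libraries form a single group, with no second group to pair by replicate number. At this depth a gene with 0 reads may hold up to 3.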
